A study of Mus musculus with 4 samples.

Results

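Nucleolar ribosome biogenesis genes encode the machinery that transcribes ribosomal RNA, modifies and cuts it, and folds it with ribosomal proteins into ribosomal subunits. The genes described here are a set of 40 listed by name out of 50600 genes in the count files. All 40 names matched a single gene in the annotation, and all 40 are protein-coding.

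RNA was sequenced from regulatory T cells of mouse strain C57BL/6NJ, in 4 libraries; the labels number them as biological replicates 1 to 4 and give no second group. The cells are labelled as primary cells, and a CD4+ T cell differentiation protocol is linked to every library. Column names in the files mention activation, sorting and 72 h; no label says the same. Age is labelled unknown and sex not collected, and all 4 libraries share a donor record although each has its own biosample record. The labels name no treatment or genotype beyond the strain, and there is no control group. Nothing in the labels says which libraries came from separate animals or cultures, so the spread between them may be partly technical. The assay is titled total RNA while the protocol linked for library building names poly(A)+ RNA, and which of them was used was not settled here.

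In growing cells, RNA polymerase I copies the ribosomal RNA genes into a long precursor inside the nucleolus. Small nucleolar RNAs guided by protein partners mark chosen bases of this precursor: box C/D particles add methyl groups to ribose, and box H/ACA particles convert uridine to pseudouridine. The small subunit processome folds and cuts the part that becomes the 40S subunit, while other factors, among them the PeBoW complex, mature the 60S subunit. T cells leaving quiescence enlarge their nucleoli and raise ribosome production before they divide, and many of these genes are known targets of the transcription factor MYC.

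The libraries held 46044354, 72147632, 94983494 and 32648138 counts in replicates 1 to 4. Of the 5 regulatory T cell markers, all were present, with Foxp3 at 463 ± 25.4 TPM and Il2ra at 1769 ± 120.3 TPM (SD, n = 4). Ctla4 averaged 648.7 ± 57.23 TPM and Tnfrsf18 1141.3 ± 60.33 TPM. Ikzf2 was far lower, at 12.97 ± 1.77 TPM, below the 26.2 TPM of the median gene with 1 TPM or more in every library. TPM divides counts by gene length and scales each library to the same sum. Markers of B cells, CD8 T cells, myeloid cells, NK cells, erythroid cells and stroma all lay below 1 TPM in the mean, except Adgre1 at 1.75 ± 0.721 TPM, and S100a8, S100a9, Ncr1 and Hbb-bs had no count. The libraries were not alike in every respect. X-linked Xist measured 312, 331, 0.539 and 2.38 TPM in replicates 1 to 4, and Y-linked Ddx3y 0.0664, 0.0264, 26.0 and 31.2 TPM. The libraries therefore do not all come from the same animal, although they share a donor record, and the test of variation below takes no account of this split. Gm42418, a locus that carries ribosomal RNA sequence, was highest in replicate 1, at 11891 TPM, against 4335, 2980 and 1555 TPM in replicates 2 to 4, and so were the nuclear RNAs Malat1 (131 TPM, against 42.5 to 55.2 TPM) and Rn7sk (92.9 TPM, against 9.02 to 14.5 TPM).

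All 40 members were expressed, taken as 1 TPM or more in every library, whereas 23.9% of all genes in the files were. That share covers genes of every type, while all members are protein-coding. The median member stood at 106.4 ± 4.07 TPM, against 26.2 ± 0.732 TPM for the 12114 expressed genes (SD, n = 4). In replicates 1 to 4 the median member was at 110.2, 105.7, 101.0 and 108.8 TPM. The mean level was 100 TPM or more for 22 of the 40 members and for 16.3% of expressed genes. There were 13 members in the top 10% of expressed genes, and 38 lay above the median of expressed genes. Together the members took 0.653 ± 0.0232% of all TPM and 0.789 ± 0.0336% of all counts. Counts per member and library ran between 97 and 120306.

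**Figure D1:**
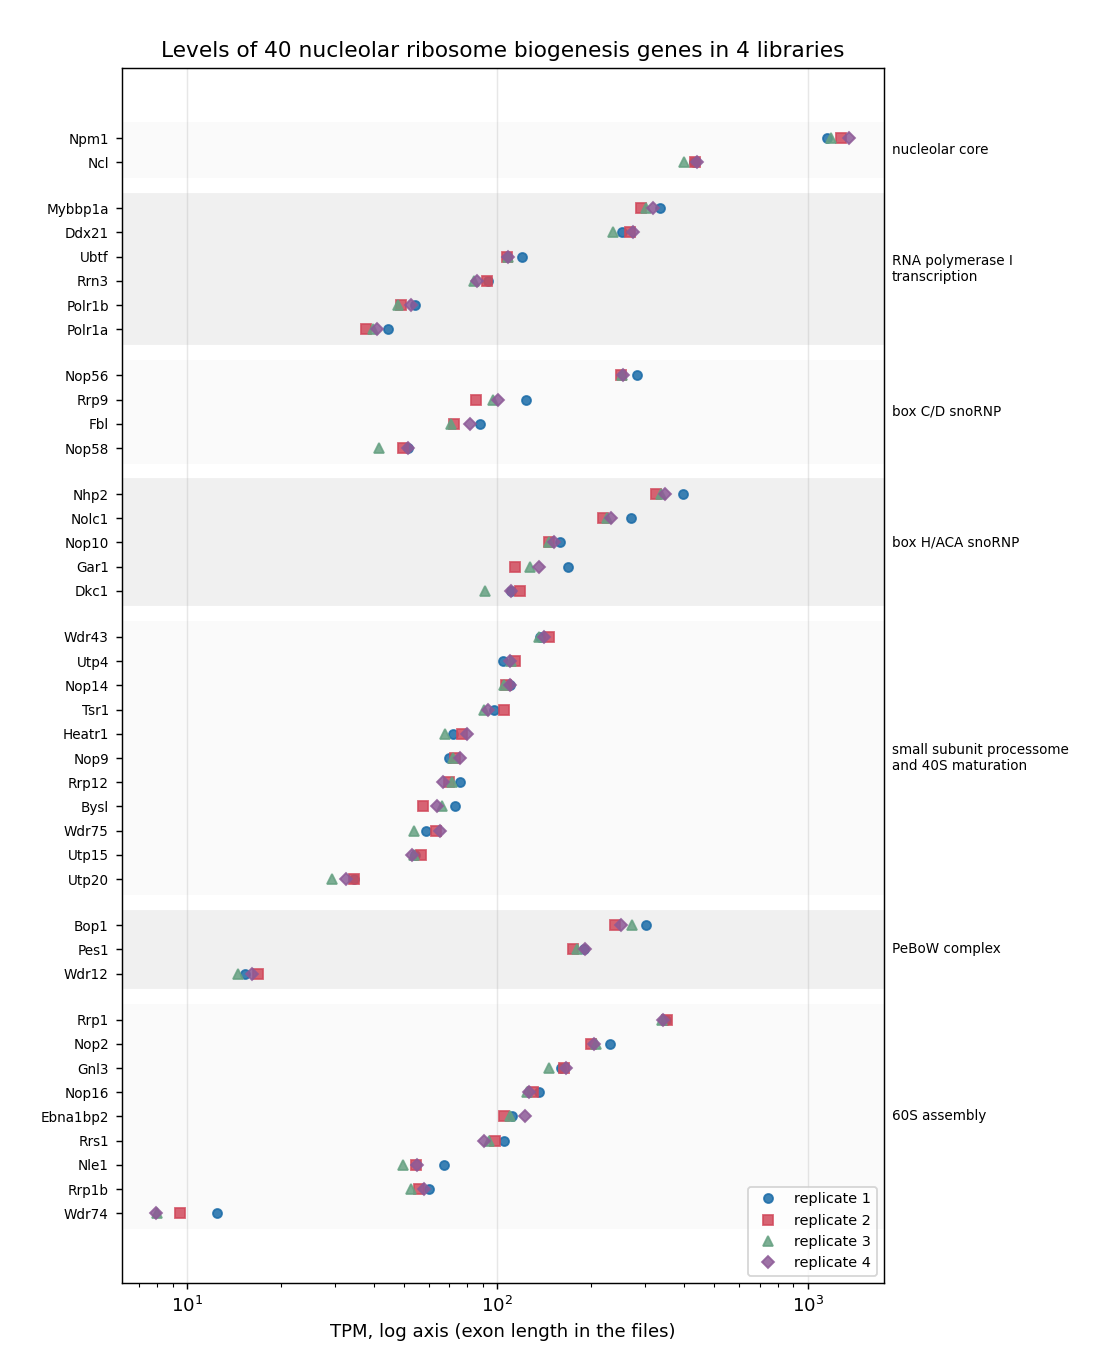
Each point is the level of a member in a library, in TPM on a log axis, with members grouped by role and ordered within a role by mean level. Points of a gene lie close together compared with the distance between genes; Npm1 is highest at 1157 to 1363 TPM and Wdr74 lowest at 7.94 to 12.4 TPM.

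The spread between libraries was small against the spread between genes. The coefficient of variation of TPM had a median of 6.48% over the members, with Rrp1 lowest at 1.78% and Wdr74 highest at 22.3%, and a median of 7.57% over the 8835 expressed genes in the same range of levels. Without replicate 2 the order turned, at 6.50% for the members and 6.27% for those genes. Ordered by mean level, the members formed 39 neighbouring pairs, and in 10 of these the libraries of the higher gene all lay above those of the lower one. A further 7 pairs overlapped in range but kept their order within each library, among them Mybbp1a above Bop1 and Rrn3 above Fbl. In the remaining 22 pairs the order changed between libraries, so those neighbours were not resolved.

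Levels of different genes can be compared only per length, and the length used matters for some of the members. The files give each gene the total length of all its annotated exons, which counts rarely used and intron-retaining exons too. For 5 members this exon length was more than 2 times the shortest principal transcript in the annotation: Nop58 (10758 against 1713 bp), Wdr12 (11955 against 2850 bp), Fbl (4209 against 1197 bp), Ubtf (6552 against 2759 bp) and Nop56 (4099 against 1877 bp). The share of expressed protein-coding genes above the same ratio was 23.7%. The median ratio was 1.18 over the members and 1.35 over those genes, so the members were not the more affected set. With the principal transcript as the length, a choice made after the data were seen, Nop58 had 193 ± 19.9 TPM, against 48.5 ± 4.87 TPM by exon length, Fbl 174 ± 18.4 against 78.1 ± 7.99 TPM, and Wdr12 41.9 ± 2.71 against 15.8 ± 1.00 TPM. Over expressed genes the median of the shifts under that unit was -0.30 on the log2 scale. The gain of these genes relative to a typical expressed gene is therefore larger than the values show. Counts include reads in exons outside the principal transcript, so neither length gives an exact level. Across the 40 members the ranks under both lengths had a Spearman rho of 0.84, given as a description.

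**Figure D2:**
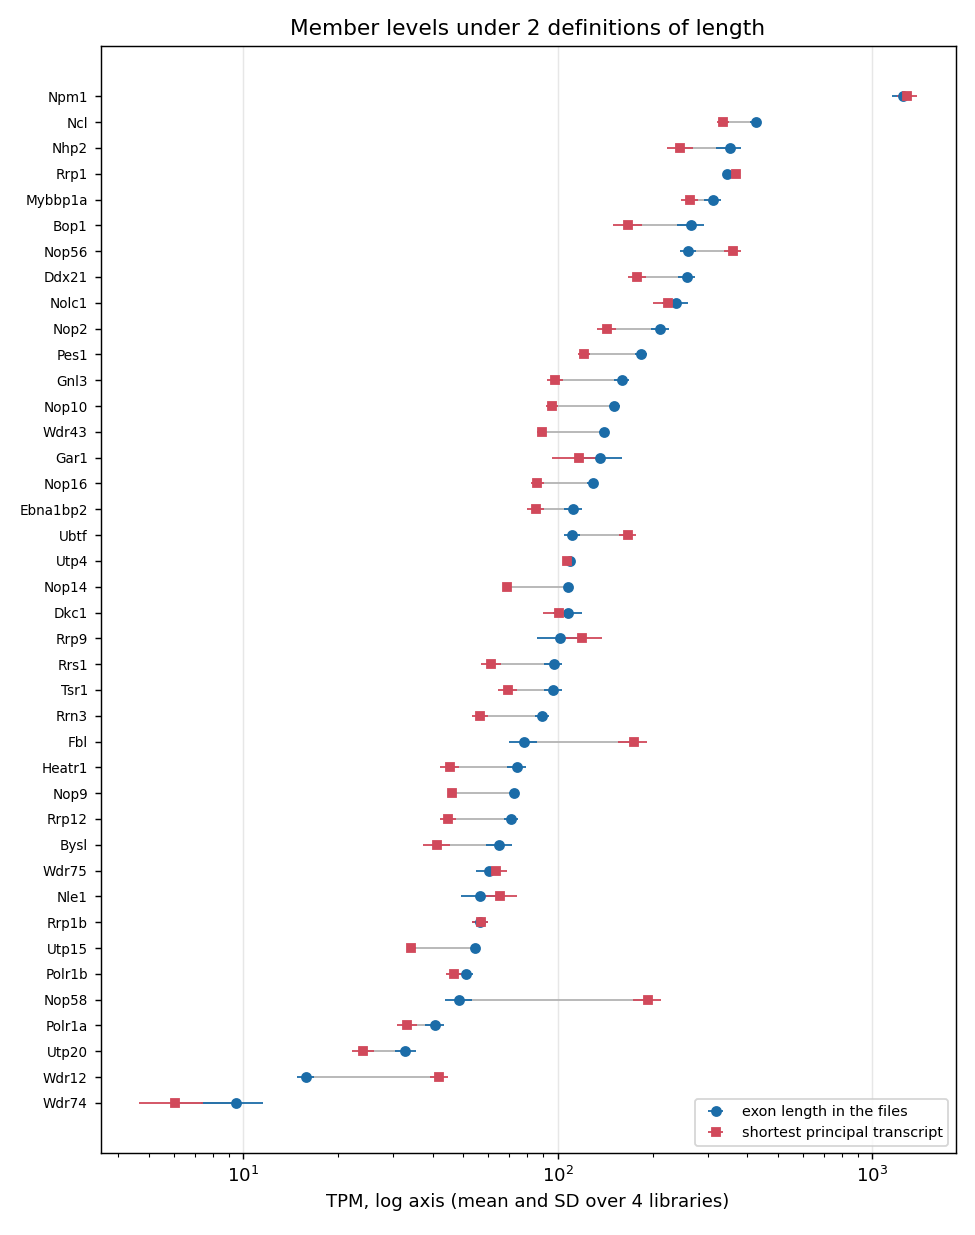
Mean level and SD over 4 libraries of each member, in TPM on a log axis, computed with the exon length in the files (circles) and with the shortest principal transcript (squares). Nop58, Fbl, Wdr12, Ubtf and Nop56 move furthest to the right, and some others, among them Rrp9 and Nle1, move right by less. Members whose exon and transcript lengths are alike move left by a similar step because TPM sums to a fixed total.

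By exon length the genes of the nucleolar core proteins had the highest levels of the members. By principal transcript length Npm1 stayed highest, but Ncl, at 335 ± 14.2 TPM, lay below Rrp1 (369 ± 8.72 TPM) and Nop56 (360 ± 22.5 TPM). By coding length, also chosen after the data were seen, Ncl lay above both, at 682 ± 28.4 TPM. Rrp1 then stood at 260 ± 6.11 TPM and Nop56 at 204 ± 13.8 TPM, so the place of Ncl depended on the length. Npm1 encodes nucleophosmin, a chaperone of histones and ribosomal proteins; it measured 1157, 1284, 1186 and 1363 TPM in replicates 1 to 4, a mean of 1247 ± 94.5 TPM (SD, n = 4). Npm1 (ENSMUSG00000057113.13, chromosome 11, 33152287 to 33163206 in mm10) made up 19.1 ± 1.47% of the members' summed TPM. Ncl encodes nucleolin, an RNA-binding protein of ribosomal RNA transcription and processing, and measured 431, 433, 400.1 and 438 TPM. Every library of Npm1 lay above every library of Ncl. On the log2(TPM + 1) scale Npm1 exceeded Ncl by 1.55 ± 0.09, and did so in 4 of 4 libraries (two-sided exact test by flipping signs, a permutation p = 0.13; adjusted p = 0.135 over 13 pairs). With 4 libraries the smallest p such a test can give is 0.13, so these tests cannot pass 0.05 and the sizes and their spread are what the data give. By coding length the difference was 0.89 ± 0.09. The order turned round in CPM, which scales counts by the library total and does not correct for length, at -0.38 ± 0.09.

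RNA polymerase I and its helpers spanned a wide range. Polr1a and Polr1b, the subunits that form the active centre of the enzyme, were the lowest members of this role. Both stood above the 26.2 TPM of the median expressed gene. Polr1a measured 44.3, 37.6, 39.6 and 41.0 TPM, and Polr1b 54.2, 49.1, 47.7 and 52.6 TPM. Their libraries did not overlap. Polr1a minus Polr1b was -0.32 ± 0.05 on the log2(TPM + 1) scale, negative in each library (exact sign-flip permutation p = 0.13, adjusted p = 0.135), but 0.11 ± 0.05 when the coding length was used.

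Factors that bring the polymerase to ribosomal DNA were higher. Ubtf, which binds the promoter of ribosomal RNA genes, measured 120.4, 107.2, 107.9 and 107.9 TPM. Rrn3, the initiation factor that couples the polymerase to growth signals, measured 93.3, 92.3, 84.3 and 85.9 TPM. All libraries of Ubtf lay above all libraries of Rrn3, and the difference was 0.31 ± 0.07 on the log2(TPM + 1) scale (exact sign-flip permutation p = 0.13, adjusted p = 0.135). It was 1.54 ± 0.07 by principal transcript length. The remaining members of this role, Mybbp1a, a nucleolar protein linked to ribosomal RNA transcription and processing, and the RNA helicase gene Ddx21, averaged 311 ± 19.3 and 257 ± 16.7 TPM.

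The promoters of these genes were searched for short motifs. RefSeq promoter windows (GRCm38.p6, 250 bases before the annotated start to 50 after it) were at hand for 35 of the 40 members. CACGTG, the E-box core that MYC and related factors can bind, is its own reverse complement. It occurred in 9 of 35 members (25.7%), against 12.1% of 8562 expressed protein-coding genes and 8.09% of 27025 genes with a window. CCGGAAGT, an ETS-type motif searched on both strands, occurred in 8 of 35 members (22.9%), against 10.3% and 4.31% of those sets. The palindromic core of the NRF1 motif occurred in 0 of 35 members and 2.59% of expressed protein-coding genes, and AAGATGGC, searched on both strands, in 0 of 35 members and 5.79% of those genes. These are matches of letters and not measured binding.

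Rrn3 was the member with more than a single CACGTG, and Nop2 shared with it a match upstream of the start, so their windows are shown with the motif in capitals. The Rrn3 matches begin at positions -48 and -215 relative to the start (windows chr16:13780621-13780686 and chr16:13780454-13780519, plus strand) and the Nop2 match at position -60 (chr6:125131793-125131858, plus strand). In the other 7 members with the motif it began between 3 and 41 bases after the start.
Rrn3, nearer match: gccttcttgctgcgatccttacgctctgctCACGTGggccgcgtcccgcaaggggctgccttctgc
Rrn3, farther match: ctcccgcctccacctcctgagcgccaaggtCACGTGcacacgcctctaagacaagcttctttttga
Nop2: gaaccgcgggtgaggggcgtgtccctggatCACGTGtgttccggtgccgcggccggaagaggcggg

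The proteins of the box C/D particle include that of Fbl, the ribose methyltransferase fibrillarin, and the scaffold proteins of Nop56 and Nop58. Nop56 measured 281.8, 250.4, 252.2 and 254.6 TPM, Fbl 87.8, 72.3, 70.8 and 81.5 TPM, and Nop58 51.7, 49.5, 41.4 and 51.6 TPM. By exon length the groups of libraries did not overlap, and the order was Nop56, Fbl, Nop58 in every library. Nop56 exceeded Nop58 by 2.40 ± 0.13 (log2), Fbl minus Nop56 was -1.73 ± 0.09 and Fbl exceeded Nop58 by 0.67 ± 0.10 (exact sign-flip permutation p = 0.13 and adjusted p = 0.135 for each). By principal transcript length Nop56 exceeded Nop58 by only 0.90 ± 0.14, and Fbl minus Nop58 turned to -0.15 ± 0.11. Nop56 stayed above Fbl under every unit tried, and the place of Nop58 depended on the length. Rrp9, which binds the U3 small nucleolar RNA, measured 123, 85.6, 96.9 and 100.3 TPM and was highest in replicate 1.

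**Figure D3:**
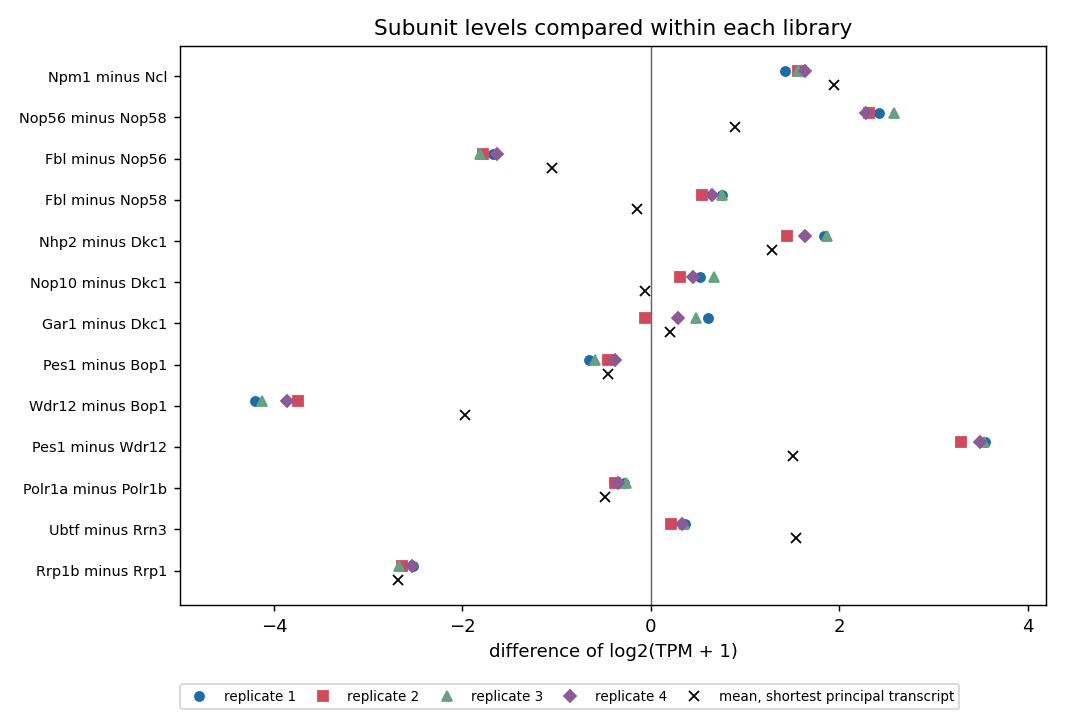
Difference of log2(TPM + 1) between the members of each pair in replicates 1 to 4, with the mean difference by principal transcript length as a cross. Libraries of a pair lie close together, while the cross moves toward 0 for Nop56 minus Nop58 and Wdr12 minus Bop1 and to the other side of 0 for Fbl minus Nop58 and Nop10 minus Dkc1.

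The box H/ACA particle holds Dkc1, the pseudouridine synthase dyskerin, with the small proteins of Nhp2, Nop10 and Gar1. By exon length Nhp2 was the most abundant, at 397, 324, 337 and 347 TPM. Nop10 measured 159, 147, 146 and 152 TPM, Gar1 168, 114, 127 and 136 TPM, and Dkc1 110.4, 119, 91.3 and 111 TPM. Nhp2 lay above the other 3 in every library, and the libraries of Gar1 overlapped those of Nop10 and of Dkc1. Nhp2 exceeded Dkc1 by 1.70 ± 0.20 and Nop10 exceeded it by 0.49 ± 0.15 (log2, the same sign in 4 of 4; exact sign-flip permutation p = 0.13, adjusted p = 0.135). Gar1 minus Dkc1 was 0.33 ± 0.29 with 3 of 4 libraries above 0 (p = 0.25, exact permutation of signs, adjusted p = 0.25), so their levels were not resolved. Nop10 minus Dkc1 was -0.06 ± 0.15 by principal transcript length but 1.58 ± 0.15 by coding length. By coding length Nop10, at 291 ± 14.2 TPM, also lay close to Nhp2, at 293 ± 29.9 TPM. Nolc1, a chaperone of these particles, averaged 237 ± 22.9 TPM. Dkc1 is X-linked and was lowest in replicate 3, at 91.3 TPM. Replicate 4, which like replicate 3 had little Xist, stood at 111 TPM, near replicate 1 at 110.4 TPM. A link of Dkc1 to Xist was not tested.

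Several members carry small nucleolar RNA genes inside their own introns, so that a single primary transcript holds both a messenger RNA and a guide. The annotation placed 21 such genes within 7 members: 5 in Nop56, 4 in Nop58, 3 each in Ncl, Gnl3 and Wdr43, 2 in Tsr1 and 1 in Dkc1. They are between 68 and 133 bases long. These libraries barely sampled them: 8 of the 21 had no count, and the highest, Snord69 in Gnl3, had 81, 89, 53 and 22 counts in replicates 1 to 4. All 21 together held 1010 counts over the 4 libraries. Reads that fell on exons of both a host and its guest were not counted for either, and whether RNA without a poly(A) tail was kept is not settled by the labels, so these counts are not read as the amount of the guides.

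The guides are shown because box C and box D are the features that name the box C/D particle described above. The 5 that have a SNORD name and both boxes are given 5′ to 3′ from GENCODE M21, in DNA letters, with the box C core TGATGA and the box D CTGA in capitals. Snord82 lies in Ncl (chr1:86356261-86356330, minus strand), Snord110 in Nop56 (chr2:130275506-130275573, plus), Snord11 in Nop58 (chr1:59704790-59704873, plus), Snord69 in Gnl3 (chr14:31014287-31014366, minus) and Snord92 in Wdr43 (chr17:71631281-71631365, plus).
Snord82: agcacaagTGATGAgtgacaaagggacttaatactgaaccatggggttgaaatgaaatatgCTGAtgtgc
Snord110: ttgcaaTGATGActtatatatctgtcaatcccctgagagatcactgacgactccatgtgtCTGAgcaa
Snord11: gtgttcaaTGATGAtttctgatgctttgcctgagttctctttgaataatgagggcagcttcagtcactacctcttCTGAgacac
Snord69: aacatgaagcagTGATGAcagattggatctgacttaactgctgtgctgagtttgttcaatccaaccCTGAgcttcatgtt
Snord92: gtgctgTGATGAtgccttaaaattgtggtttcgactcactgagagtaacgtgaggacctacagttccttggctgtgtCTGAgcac

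The 11 members of the small subunit processome and of 40S maturation ran between 32.8 and 140.0 TPM in the mean, and their median was 73.2 ± 1.93 TPM (SD over libraries, n = 4). Wdr43 was highest, at 140.0 ± 4.73 TPM, followed by Utp4 at 109.4 ± 3.94 TPM and Nop14 at 107.8 ± 2.40 TPM. Utp20, a very large scaffold protein of the processome, was lowest and measured 34.6, 34.6, 29.3 and 32.6 TPM. Between these lay Tsr1 at 96.5 ± 6.25 TPM, Heatr1 at 74.1 ± 5.25 TPM, Nop9 at 72.6 ± 2.47 TPM, Rrp12 at 70.9 ± 3.69 TPM, Bysl at 65.2 ± 6.26 TPM, Wdr75 at 60.3 ± 5.18 TPM and Utp15 at 54.5 ± 1.54 TPM. Of these, Tsr1, Bysl and Rrp12 act on later 40S precursors, and Utp4, Utp15, Heatr1, Wdr43 and Wdr75 belong to the subcomplex that joins the precursor RNA early. Over all 40 members, the Spearman rho of mean TPM with exon length was -0.43. It was -0.22 over 10680 expressed protein-coding genes, and both are given as descriptions. TPM divides counts by this same length, so the values share a term and the rho is not read further.

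The PeBoW complex, which is needed for 60S maturation, is named for Pes1, Bop1 and Wdr12. Bop1 measured 301, 239.9, 271 and 249.7 TPM, Pes1 189.9, 175, 180.2 and 192 TPM, and Wdr12 15.3, 16.9, 14.6 and 16.2 TPM. By exon length the 3 genes did not overlap in any library, in the order Bop1, Pes1, Wdr12. Pes1 minus Bop1 was -0.52 ± 0.13, Wdr12 minus Bop1 -3.99 ± 0.21 and Pes1 minus Wdr12 3.47 ± 0.12 (log2; exact sign-flip permutation p = 0.13 and adjusted p = 0.135 for each). The gap of Wdr12 rested largely on its exon length of 11955 bp: by principal transcript length Wdr12 minus Bop1 was -1.97 ± 0.22, and by coding length -0.99 ± 0.22. Wdr12 stayed the lowest of the 3 under each length. Pes1 minus Bop1 was -0.46 ± 0.13 by principal transcript length but 0.09 ± 0.13 by coding length, so their order depended on the length.

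Among the other 60S assembly genes, Rrp1 had the highest level, at 349, 353, 339.7 and 341 TPM. Rrp1 also had the lowest coefficient of variation of the 40 members, at 1.78%, near the 2.23% of Nop14. Its paralogue Rrp1b averaged 56.6 ± 3.19 TPM, between 52.5 and 60 TPM in single libraries, and Rrp1b minus Rrp1 was -2.59 ± 0.07 (log2, the same sign in 4 of 4; exact sign-flip permutation p = 0.13, adjusted p = 0.135). That difference kept its sign under each unit tried, at -2.68 ± 0.07 by principal transcript length and -1.40 ± 0.07 in CPM. Nop2, a methyltransferase of 28S ribosomal RNA, averaged 211 ± 13.7 TPM, and Gnl3, which encodes the GTPase nucleostemin, 159.5 ± 8.96 TPM. Nop16 averaged 129 ± 5.15 TPM, Ebna1bp2 112 ± 7.57 TPM and Rrs1, which helps to bring the 5S particle to the precursor, 96.8 ± 6.45 TPM. Nle1, a substrate of the remodelling ATPase of the 60S precursor, measured 67.3, 54.7, 49.7 and 55.2 TPM.

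Wdr74 was the lowest member, at 12.4, 9.44, 7.997 and 7.94 TPM. Reads on most of this gene could not be counted. On chromosome 19, 90.7% of the exon bases of Wdr74 (8735827 to 8740624 in mm10) are shared on the same strand with a second annotated gene, ENSMUSG00000110423.1 (8735841 to 8741223), and reads that fall on 2 genes were not counted. Wdr74 kept 219, 251, 287 and 97 counts and the overlapping gene 0, 7, 14 and 0. For the other members shared exon bases occurred in Nop56 (8.002%), Ncl (2.12%) and Nop58 (0.781%), each with small nucleolar RNA genes inside them.

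A further question was whether any member differed between the libraries more than genes of like abundance. All 40 passed the filter on low counts. With edgeR, testing each gene's fit to the dispersion trend, 0 of 40 members did at an adjusted p under 0.05, against 0.378% of the 13478 genes tested, which is 51 genes. At an unadjusted p under 0.05 there were 4 of 40 members, against 5.97% of all genes, and DESeq2 marked 0 of 40 members and 0.356% of all genes, which is 48 genes, as dispersion outliers. The members' count was also 0 under each other setting, where edgeR called 0.378% of all genes with relative log expression scaling, 0.386% with no scaling factor, 0.17% with no filter on low counts and 0.561% above a mean of 1 CPM. It called 0.121%, 0.42%, 0.173% and 0.237% of all genes without replicates 1 to 4 in turn. At these counts the result reads as no member varying detectably beyond the trend, not as no variation. The members with the smallest p were Gar1 (edgeR, adjusted p = 0.107), Rrp9 (edgeR, adjusted p = 0.144), Bop1 (edgeR, adjusted p = 0.731), Nle1 (edgeR, adjusted p = 0.756) and Fbl (edgeR, adjusted p = 0.866). All 5 were highest in replicate 1.

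Small shifts in the same library ran through the set. On TMM-scaled log2 CPM, 28 of 40 members (70%) were highest in replicate 1, against 30.3% of all genes tested, and 2 members were lowest there, Npm1 and Utp4. Replicate 2 was the lowest library for 19 members (47.5%, against 28.9% of all genes) and replicate 3 for 14 (35%, against 19.9%). The median deviation of a member from its own mean was 0.11, -0.05, -0.04 and 0.00 in replicates 1 to 4, while the median of all genes tested lay within 0.01 of 0 in each. Without a scaling factor 27 members were highest in replicate 1, against 28.5% of all genes, and in TPM 24, against 23.3%. The count of members has no test of its own.

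**Figure D4:**
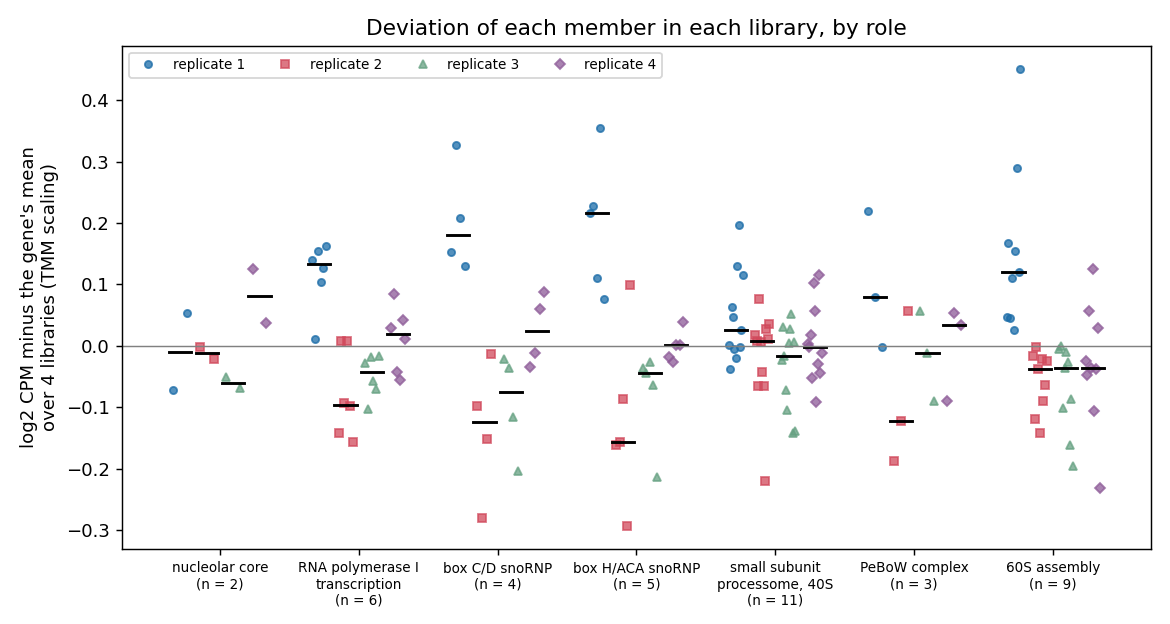
Deviation of log2 CPM from each gene's mean over 4 libraries, by role and replicate, with black bars at the median. Replicate 1 lies highest for the box H/ACA (0.22), box C/D (0.18), RNA polymerase I (0.13) and 60S assembly (0.12) members, and near 0 for the small subunit processome (0.03) and the nucleolar core (-0.01).

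By role, the median deviation in replicate 1 was 0.22 for the box H/ACA members, 0.18 for the box C/D members, 0.13 for RNA polymerase I transcription, 0.12 for 60S assembly and 0.08 for PeBoW. It was 0.03 for the small subunit processome and -0.01 for the nucleolar core. Single members set against the mean of replicates 2 to 4 ran from 0.60 for Wdr74, 0.47 for Gar1, 0.44 for Rrp9 and 0.39 for Nle1 to -0.05 for Utp4 and -0.10 for Npm1. The value of Wdr74 rests on the few counts left to it by its overlapping gene.

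Base composition moved with this difference. Over the 40 members, the Spearman rho between the difference of replicate 1 from the others and the GC content of the principal transcript was 0.71, against 0.20 over 13456 genes, a description of points that share their libraries. The 7 members with a GC content of 55% or more all lay above 0 with a median of 0.29, where all genes of that class had a median of 0.08. Of the 8 members under 45% GC, 5 lay above 0 with a median of 0.03, where all genes had -0.06. With the GC trend over all genes removed, a step chosen after the data were seen, 37 of 40 members lay above 0. Their median was then 0.16, and before the step these values were 34 of 40 and 0.15. Of all genes, 51.1% of 13456 lay above 0 after the step and 50.6% of 13478 before it. After it 32 members were highest in replicate 1, against 31.6% of all genes, and the rho over the members was 0.54. The high Gm42418, Malat1 and Rn7sk levels belong to the same library, and their part in these values was not tested.

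**Figure D5:**
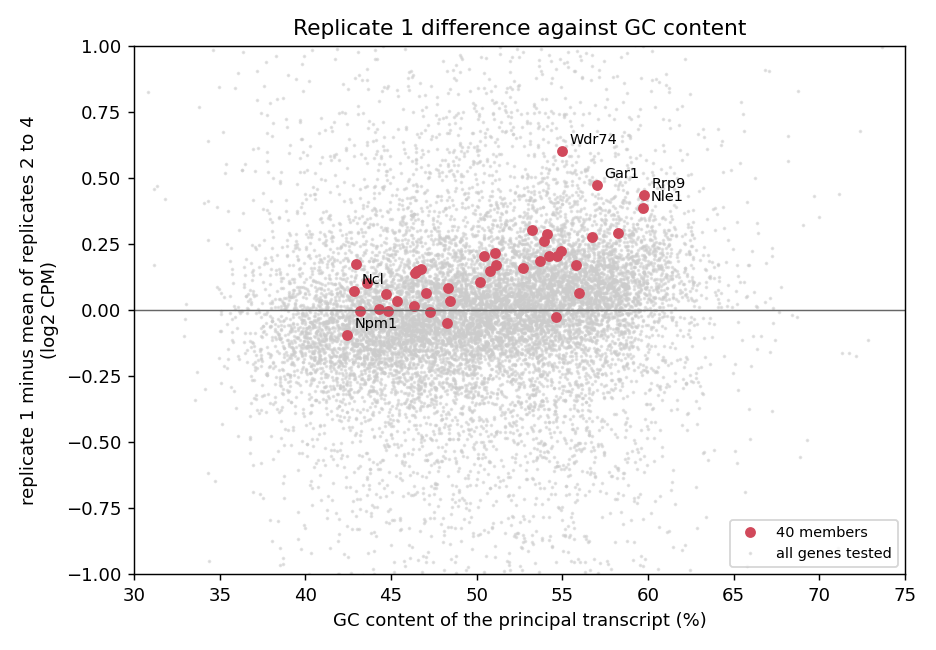
Difference of replicate 1 from the mean of replicates 2 to 4, in log2 CPM, against the GC content of the principal transcript, for the 40 members (large points) and all genes tested (small points; 549 genes lie outside the axes). Most members lie above 0; Gar1, Rrp9 and Nle1 lie highest after Wdr74, while Rrp1, at 55.9% GC, lies at 0.06.

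The other genes of the pathway were nearly all expressed as well. Of the 127 genes on this list that the files hold, 126 were expressed, with a median level of 62.6 TPM, against 26.2 TPM for all expressed genes. In the test of variation 0 of 126 were called by edgeR, against 0.378% of all genes tested, and 4 had an unadjusted p under 0.05, against 5.97% of all genes. All 12 further RNA polymerase I genes were expressed, with Polr1c highest at 134 ± 9.07 TPM and Taf1a lowest at 18.6 ± 2.22 TPM. All 40 genes listed under the small subunit were expressed, between Diexf at 25.5 ± 2.31 TPM and Noc4l at 265.9 ± 11.6 TPM. So were all 51 genes listed under the large subunit, between Nmd3 at 17.7 ± 1.32 TPM and Noc2l at 429.7 ± 7.59 TPM. Of 14 exosome genes, which trim the precursor RNA, 13 were expressed, with Exosc3 highest at 135.9 ± 4.83 TPM. Exosc6 had no count in any library; 100% of its exon bases lie in exons of Aars on the same strand, so no read could be assigned to it. All 10 assembly factors of small nucleolar particles were expressed, led by Ruvbl2 at 222 ± 17.4 TPM, with Shq1 lowest at 10.4 ± 0.77 TPM.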

How the data were processed

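The authors deposited unnormalized counts of read pairs for each gene. Per the file headers, featureCounts 1.4.6-p4 made them and the alignments came from STAR. These record paired counting with both ends mapped, strand setting 2 and the GENCODE M13 annotation; the labels name mm10. Multimapping reads and reads on several genes were not counted, so copies and overlapping genes are undercounted; Npm1 has processed copies in the genome, and its level is uncertain for that reason.

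Symbols, transcripts and GC content came from GENCODE M21 (50376 of 50600 identifiers matched), on the same assembly as the files. TPM used the exon length in the files. Variation was tested with edgeR 4.0.16 under R 4.3.3 (filterByExpr at its minimum count of 10, TMM scaling, intercept-only design, one-sided goodness of fit at the trended dispersion, Benjamini-Hochberg over all genes) and with DESeq2 1.42.0, and the script was tested on simulated data. Deviations used log2 CPM with a prior count of 2. Differences within libraries were tested by exact permutation of their signs, two-sided, adjusted over 13 pairs. A floor of 3 counts lies at 0.0316 to 0.0919 CPM and covers counting error only. A check for the same library entered more than once found none (chi-square per gene 9.56 or more in every pair). The members, lists and tests were chosen with earlier results of these data known. Values in every library are given for complex subunits, polymerase factors and the members at the ends of the order of level or of p. The principal transcript is the shortest of the best APPRIS class. Alternatives were other scalings, filters, units, lengths and each library left out. A symbol on the wider list is not analysed here.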

Additional observations from a re-analysis of the deposited data

Results flagged for a closer look

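Of 66 values examined by Dixon's criterion for a library far from the other 3, 2 met it; by chance about 1 in 20 would. Nop56, the box C/D scaffold gene, was highest in replicate 1 at 281.8 TPM, against 250.4, 252.2 and 254.6 TPM in replicates 2 to 4. Ubtf, which encodes the ribosomal DNA binding factor, was also highest in replicate 1, at 120.4 TPM, against 107.2, 107.9 and 107.9 TPM. By edgeR neither gene was called for variation.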

How the results depend on the processing

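The number of members called by the test of variation was 0 under each scaling and filter tried, by DESeq2 and without each replicate. The lowest adjusted p of any member was 0.087 by edgeR, for Gar1, whose adjusted p ran up to 1.00, reached without replicate 1. The number of all genes called ran from 17 to 56 when each replicate was left out, against 51 with all 4, with 17 without replicate 1, 23 without replicate 3 and 33 without replicate 4. The median member stood at 113.8 CPM, at 92.0 TPM by principal transcript length and at 74.8 TPM by coding length; all expressed genes stood at 33.9 CPM, 24.97 TPM and 25.7 TPM. All members stayed expressed under each definition except 10 TPM in every library, which 39 passed. In CPM, which does not correct for length, the differences turned to -0.38 for Npm1 minus Ncl, -0.66 for Fbl minus Nop58, -0.14 for Nhp2 minus Dkc1, -1.38 for Nop10 minus Dkc1, -0.93 for Gar1 minus Dkc1 and 0.70 for Polr1a minus Polr1b. By principal transcript length Fbl minus Nop58 was -0.15 and Nop10 minus Dkc1 was -0.0622, and by coding length Fbl minus Nop58 was -0.22, Pes1 minus Bop1 was 0.0903 and Polr1a minus Polr1b 0.11. These turns follow from the lengths themselves. Leaving out a replicate turned none of the 13 differences. The median coefficient of variation of the members was 4.91%, 6.50%, 5.37% and 6.71% without replicates 1 to 4 in turn, against 6.50%, 6.27%, 7.86% and 7.89% for genes in their range of levels, so the members were the higher set without replicate 2. The fewest counts were those of Wdr74, 97 to 287 per library, most of whose exon bases overlap another gene.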
